A study of Mus musculus with 26 samples.

Results

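The 10 genes described here write, erase or help to remove methyl groups on cytosine in DNA: Tet1, Tet2, Tet3, Tdg, Gadd45a, Gadd45b, Gadd45g, Dnmt1, Dnmt3a and Dnmt3b. They were chosen by name, from knowledge of the pathway, and each was found once by its Ensembl identifier among the 55401 genes of both deposited count tables. Their RNA was followed in 26 libraries of mouse dorsal root ganglia (DRG), which hold the cell bodies of sensory neurons, or of neurons cultured from them. The study asked how the aryl hydrocarbon receptor (Ahr, a ligand-activated transcription factor) bears on the regrowth of injured sensory axons. Ahr conditional knockout (cKO) mice carried Ahr f/f and Thy1-CRE(ERT2/EYFP), a tamoxifen-inducible Cre recombinase driven by the neuronal Thy1 promoter, so cells without Cre keep Ahr. Control mice carried floxed Ahr (fl/+ or fl/fl) without Cre. Naive and crushed mice of both genotypes received tamoxifen (100 mg/kg daily for 5 days) at 28 weeks of age. Their L4-L6 ganglia were taken 5 weeks later, either naive (3 control and 3 cKO mice) or 1 day after crush of the sciatic nerve (3 and 3 mice). A further 8 libraries came from 4 male mice 1 day after sham surgery, with the operated and the opposite side of each mouse (2 control mice, 1 fl/+ and 1 fl/fl, and 2 cKO mice). The last 6 libraries held semi-purified DRG neurons 24 h after seeding (3 fl/fl control and 3 cKO, female). For sham mice and neurons no tamoxifen treatment or age is given in the labels, and no strain is given for any mouse.

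Methyl groups on cytosine are placed by the DNA methyltransferases. Dnmt1 copies the pattern after replication, while Dnmt3a and Dnmt3b can methylate unmethylated DNA. The Tet enzymes oxidise 5-methylcytosine step by step, and the glycosylase Tdg excises the more oxidised forms so that base excision repair can restore plain cytosine. The Gadd45 proteins are small stress-induced proteins that bind Tdg and repair factors, and they also bind p38-activating kinases, Pcna and Cdk1. In sensory neurons Tet3 and Gadd45a are known from earlier work for being raised by axon injury.

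In GENCODE M21 (GRCm38), Gadd45a lies at chr6:67035096-67037457 on the minus strand, Gadd45b at chr10:80930073-80932204 and Gadd45g at chr13:51846678-51848468, both on the plus strand. Tet1 lies at chr10:62804570-62908996, Tet2 at chr3:133463679-133545139 and Tet3 at chr6:83362373-83459084, all on the minus strand, and Tdg at chr10:82629828-82650799 on the plus strand. Dnmt1 lies at chr9:20907209-20959888 on the minus strand, Dnmt3a at chr12:3806007-3914443 and Dnmt3b at chr2:153649450-153687730 on the plus strand. A value given for a gene covers its whole span, exons and introns.

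The stretches before the transcription start of the 3 Gadd45 genes are shown because these genes moved in different directions in the data below. They come from RefSeq on GRCm38.p6, the build the files call mm10, and each stops before any annotated transcript base of its own gene. Transcripts of other genes were not checked. Letters in capitals match 1 of 5 motifs that were searched on both strands: AP-1 (TGANTCA), the cAMP response element (TGACGTCA), the core of the Ahr response element (GCGTG, which reads CACGC on the other strand), the E-box (CACGTG) and CCAAT. The Gadd45a stretch is chr6:67037458-67037657 on the minus strand, Gadd45b is chr10:80929841-80930072 on the plus strand and Gadd45g is chr13:51846425-51846674 on the plus strand.
Gadd45a: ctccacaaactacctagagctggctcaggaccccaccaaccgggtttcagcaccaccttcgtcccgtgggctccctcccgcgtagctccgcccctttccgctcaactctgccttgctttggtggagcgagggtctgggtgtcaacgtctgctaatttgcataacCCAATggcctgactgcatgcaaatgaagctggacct
Gadd45b: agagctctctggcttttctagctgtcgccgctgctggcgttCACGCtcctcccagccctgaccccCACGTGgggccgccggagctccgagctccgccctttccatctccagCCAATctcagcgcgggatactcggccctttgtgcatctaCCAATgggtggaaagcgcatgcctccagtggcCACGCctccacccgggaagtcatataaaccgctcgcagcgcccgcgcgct
Gadd45g: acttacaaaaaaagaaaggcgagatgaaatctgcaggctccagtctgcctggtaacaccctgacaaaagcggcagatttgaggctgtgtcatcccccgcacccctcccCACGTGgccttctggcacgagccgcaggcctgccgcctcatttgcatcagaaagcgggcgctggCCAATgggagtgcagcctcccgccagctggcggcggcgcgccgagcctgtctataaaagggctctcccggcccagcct

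All 3 stretches held a CCAAT box, beginning 86 bases before the RefSeq start in Gadd45a, 139 and 100 in Gadd45b and 78 in Gadd45g. The E-box lay 185 bases before the start of Gadd45b and 142 before that of Gadd45g. The core of the Ahr response element was matched only in Gadd45b among the 3, at 209 and 68 bases before the start. Over the 300-base windows of the table (250 bases before to 50 after a start), CCAAT occurs in 37.4% of 32851 windows, the Ahr core in 32.4%, the E-box in 7.15%, AP-1 in 7.81% and the cAMP response element in 1.79%, so most of these matches are common. All 10 genes had at least 1 window (14 in all), none of which held AP-1, and the cAMP response element was found in the Tdg window alone. The windows held 14 CpG in Gadd45a, 24 in Gadd45b and 21 in Gadd45g, against a median of 7 over all windows.

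Total counts per library were 20169388 to 23540375 in naive and crushed ganglia, 25299938 to 88180611 in neurons and 39306414 to 58751270 in sham ganglia. The deposited counts sum reads over the whole gene with its introns, so they may not show the loss of a floxed part of Ahr. In naive ganglia Ahr was at 18.0 to 22.8 CPM (a gene's count on a scale common to all libraries) in control and 21.4 to 26.8 CPM in cKO mice. In crushed ganglia it was at 34.2 to 37.0 CPM in control and 36.9 to 38.8 CPM in cKO mice. In neurons it was at 44.8 to 54.9 CPM in control and 44.4 to 57.0 CPM in cKO cultures. The loss of Ahr was thus not seen in these counts. Thy1, whose promoter drives the Cre transgene, was at 674 to 978 CPM in control and 1182.0 to 1572.4 CPM in cKO ganglia, and at 256 to 455 against 666 to 741 CPM in neurons, so the ranges of the genotypes lay apart. In 2 of 26 libraries the sex read from transcripts differed from the label. They are crushed control replicate 3, labelled male, and crushed cKO replicate 2, labelled female. By transcripts the naive and crushed libraries were thus all female except 2 of the 3 crushed cKO libraries, and results in the cKO are given with and without sex as a term where that changes them. CPM values below use TMM factors over all 26 libraries, and adjusted p-values come from edgeR's quasi-likelihood test with Benjamini-Hochberg adjustment over all genes tested.

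After crush, Gadd45a showed by far the widest change of the 10 genes. It stood at 23.0, 22.3 and 20.2 CPM in the naive control libraries and at 228, 211 and 180 CPM in the crushed ones. In the cKO it stood at 22.4, 21 and 21.5 CPM before and 177, 250 and 201 CPM after crush. Every crushed library lay above every naive one, and the genotypes overlapped in both states. The log2 fold change was 3.24 (SE 0.126, adjusted p = 7.57e-08) in control and 3.26 (SE 0.127, adjusted p = 8.91e-08) in cKO mice, or 9.46-fold and 9.59-fold. In each genotype only 1 of 21261 genes, the injury-induced transcription factor Atf3 (log2 fold change 5.64 and 5.60), had a smaller p. The antisense gene E230016M11Rik shares its position with Gadd45a, and reads in shared stretches were credited to both genes. Its counts equalled 18.3 to 23.9% of the Gadd45a counts in naive and 12 to 14.7% in crushed ganglia.

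Gadd45g, the third of the family, rose with it. Its level was 15.4, 14.8 and 19.8 CPM in naive control and 65.4, 60.5 and 51.9 CPM in crushed control libraries. In cKO mice it went from 13.6, 16.2 and 15.5 CPM to 50.8, 63.2 and 50.9 CPM, again without overlap between naive and crushed. The log2 fold change was 1.83 (SE 0.125, adjusted p = 2.55e-06) in control and 1.85 (SE 0.127, adjusted p = 2.61e-06) in cKO mice. Gadd45b, known as an immediate-early gene of stress and of neuronal activity, lay on the other side of 0. It was at 9.52, 9.40 and 9.93 CPM in naive control and 7.35, 6.61 and 8.34 CPM in crushed control libraries. In cKO mice the values were 10.4, 9.47 and 7.48 CPM before and 7.19, 6.80 and 6.40 CPM after crush. No crushed library reached a naive one of its genotype. The log2 fold change was -0.37 (SE 0.123, adjusted p = 0.0504) in control mice, which did not pass the threshold of 0.05, and -0.44 (SE 0.124, adjusted p = 0.0281) in cKO mice, which did. With sex by transcripts as a term the cKO value was -0.35 (adjusted p = 0.299), which did not pass. Averaged over both genotypes, Gadd45b fell by 0.40 on the log2 scale (SE 0.087, adjusted p = 0.00354). In control mice it passed in 7 of 21 alternative analyses, with adjusted p from 0.0235 to 0.175.

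**Figure D1:**
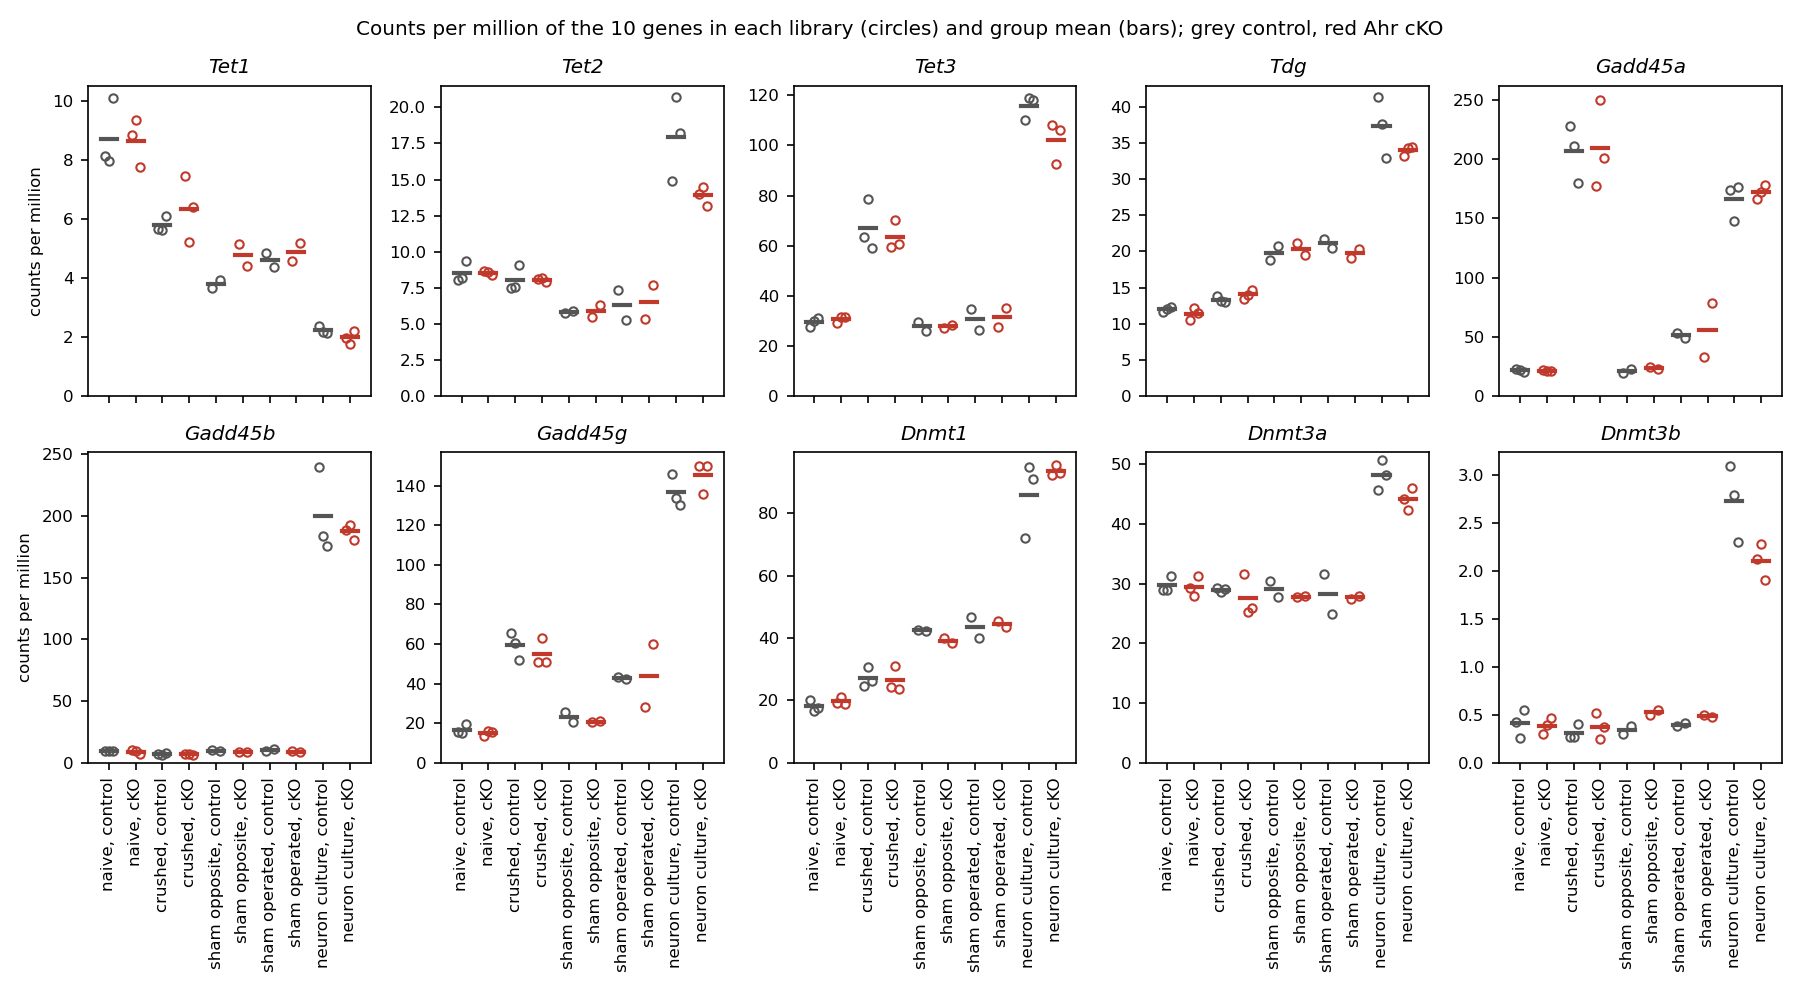
CPM of each of the 10 genes (vertical axis, linear from 0, a scale of its own for each gene) in the 10 groups along the horizontal axis. Each circle is a library, each bar a group mean of 2 or 3 libraries, grey for control and red for Ahr cKO. Gadd45a stood at 180 to 228 CPM in crushed against 20.2 to 23.0 CPM in naive control ganglia, while Gadd45b reached 176 to 240 CPM in the neuron cultures.

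Among the Tet enzymes, Tet3 rose and Tet1 fell after crush. Tet3 went from 27.8, 30.2 and 31.2 CPM to 63.5, 78.5 and 59.0 CPM in control, and from 29.2, 31.8 and 31.5 CPM to 59.6, 70.4 and 60.8 CPM in cKO mice. Every crushed library lay well above every naive one. The log2 fold change was 1.17 (SE 0.098, adjusted p = 1.07e-05) in control and 1.03 (SE 0.098, adjusted p = 3.28e-05) in cKO mice. Tet1, which has a CXXC domain for binding unmethylated CpG, went from 8.15, 7.96 and 10.1 CPM to 5.67, 5.63 and 6.11 CPM in control mice (log2 fold change -0.59, SE 0.135, adjusted p = 0.00856). In cKO mice it went from 8.84, 9.38 and 7.78 CPM to 7.45, 5.22 and 6.40 CPM (log2 fold change -0.46, SE 0.134, adjusted p = 0.0332). With sex by transcripts as a term the Tet1 value in cKO mice was -0.23 (adjusted p = 0.50). Both ranges lay apart, in the cKO by the smaller gap. Tet2, the member without a CXXC domain of its own, was at 8.02 to 9.34 CPM in naive and 7.53 to 9.10 CPM in crushed control ganglia. These overlapped, with a log2 fold change of -0.08 (95% interval -0.28 to 0.13). In cKO mice the crushed libraries, at 7.92 to 8.18 CPM, lay just below the naive ones at 8.37 to 8.67 CPM, with a log2 fold change of -0.10 (-0.30 to 0.11).

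Tdg, the glycosylase, was at 11.6, 12 and 12.4 CPM in naive and 13.9, 13.2 and 13.0 CPM in crushed control libraries. In the cKO it went from 10.6, 12.2 and 11.5 CPM to 13.5, 14.0 and 14.7 CPM. The crushed libraries were the higher ones in both genotypes, by a small margin. Its log2 fold change was 0.16 in control mice (SE 0.07, adjusted p = 0.14), which did not pass, and 0.29 in cKO mice (SE 0.07, adjusted p = 0.0139), which did. The cKO value was 0.23 (adjusted p = 0.202) with sex by transcripts as a term, and the average over genotypes was 0.22 (SE 0.05, adjusted p = 0.00453). Tdg is an uncertain count here: its neighbour Glt8d2 on the other strand held 26.7 to 42.1% as many counts in naive and 16.7 to 28.1% in crushed ganglia. A processed copy, Gm9855, held 15 to 23.0% in naive and 14.8 to 20.4% in crushed ganglia.

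Of the methyltransferases, Dnmt1 rose. It went from 20.2, 16.6 and 17.6 CPM to 24.5, 30.6 and 26.2 CPM in control mice (log2 fold change 0.58, SE 0.114, adjusted p = 0.00323). In cKO mice it went from 19.1, 21.1 and 18.9 CPM to 24.4, 31.1 and 23.8 CPM (log2 fold change 0.41, SE 0.113, adjusted p = 0.0263), and with sex by transcripts as a term the Dnmt1 value there was 0.30 (adjusted p = 0.322). No crushed library fell into the naive range. Dnmt3a, the main de novo methyltransferase of mature neurons, was at 28.9 to 31.3 CPM in naive and 28.6 to 29.3 CPM in crushed control ganglia. Its log2 fold change was -0.03 (95% interval -0.21 to 0.14) in control and -0.11 (-0.29 to 0.07) in cKO mice. Without crushed cKO replicate 1, Dnmt3a was called lower in cKO mice (adjusted p = 0.0361) and in the average over genotypes (adjusted p = 0.0373). Dnmt3b, the second de novo enzyme, had only 5 to 14 counts in each naive or crushed library. Its log2 fold change was -0.39 with a 95% interval of -1.19 to 0.40 in control mice, so the size and direction of any change stayed unsettled at this depth.

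**Figure D2:**
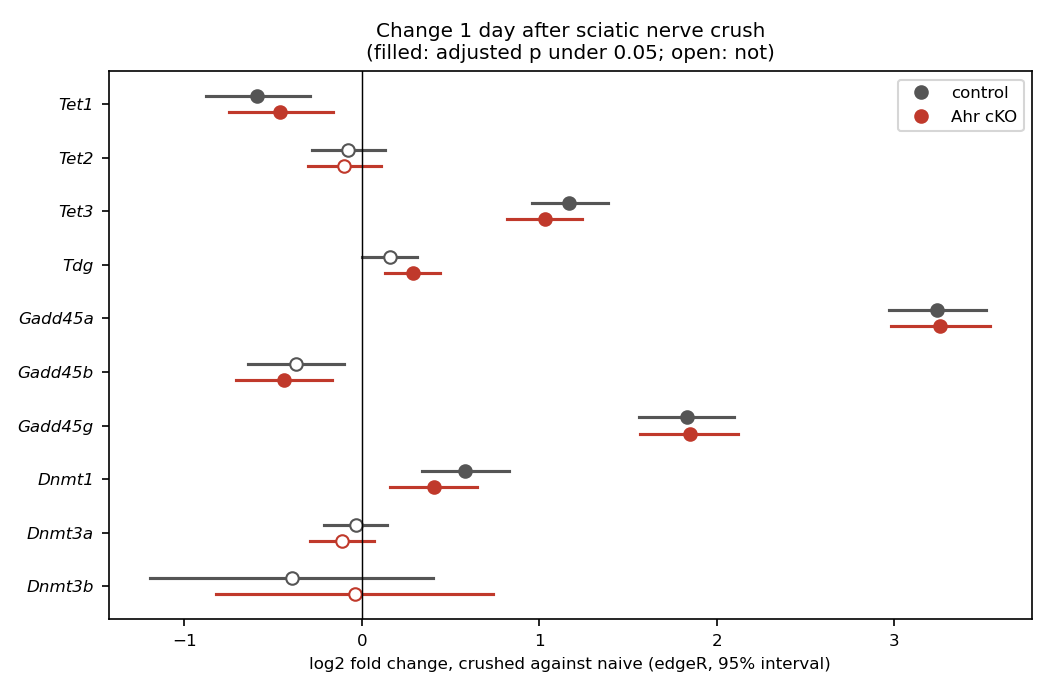
Log2 fold change of each gene, crushed against naive (horizontal axis), with its 95% interval from edgeR, in control (grey) and cKO mice (red), 3 libraries per group. Filled points passed an adjusted p of 0.05. Gadd45a lies at 3.24 and 3.26, Gadd45g at 1.83 and 1.85 and Tet3 at 1.17 and 1.03, and the intervals of the genotypes overlap for every gene.

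In control mice 4 of the 10 genes were called higher after crush (Gadd45a, Gadd45g, Tet3, Dnmt1) and 1 lower (Tet1), where 12.9% and 8.73% of all 21261 genes tested were called higher and lower. In cKO mice 5 were called higher (Tdg in addition) and 2 lower (Tet1, Gadd45b), against 10.7% and 7.89% of all genes. Naive and crushed libraries lay fully apart for 7 of 10 genes in control mice, as they did for 38.4% of all genes, and for 8 of 10 in cKO mice, beside 36.3% of all genes. Averaged over the genotypes, 5 were higher and 2 lower, against 18.4% and 15.7% of all genes. The 10 genes had a median log2 fold change of 0.08 in that average, beside -0.0156 for all genes. In cKO mice the count of 7 rested on the small changes: it was 3 (Gadd45a, Gadd45g and Tet3) with sex by transcripts as a term and 3 without naive cKO replicate 1. It was 4 without crushed cKO replicate 2 and 4 without crushed cKO replicate 3. Calls over all genes fell too, from 3962 to 1414 with the sex term, 2838 without naive cKO replicate 1, and 2660 and 3096 without crushed cKO replicates 2 and 3. The average over genotypes gave 7 with sex by transcripts as a term.

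In bulk ganglia, a change in the number of cells of a type and a change of RNA per cell cannot be told apart. Beside these results, the summed level of the 9 neuron markers was 5844.1 to 6843.3 CPM in naive and 5827.8 to 6938.9 CPM in crushed ganglia, with 0 markers called higher and 2 lower in the average over genotypes. Of 7 satellite glia markers 2 were called higher and 1 lower. Of 7 Schwann cell, 8 macrophage and 4 neutrophil markers, 0 were called in either direction. Of 5 endothelial and of 5 fibroblast markers 0 were called higher and 1 lower each. Of the 6 markers of dividing cells 0 were called higher and 2 lower, with sums of 19.3 to 72.3 CPM in naive and 15.1 to 29.2 CPM in crushed ganglia, while Dnmt1 went up. The part of these shifts in the 10 genes' values was not tested.

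**Figure D3:**
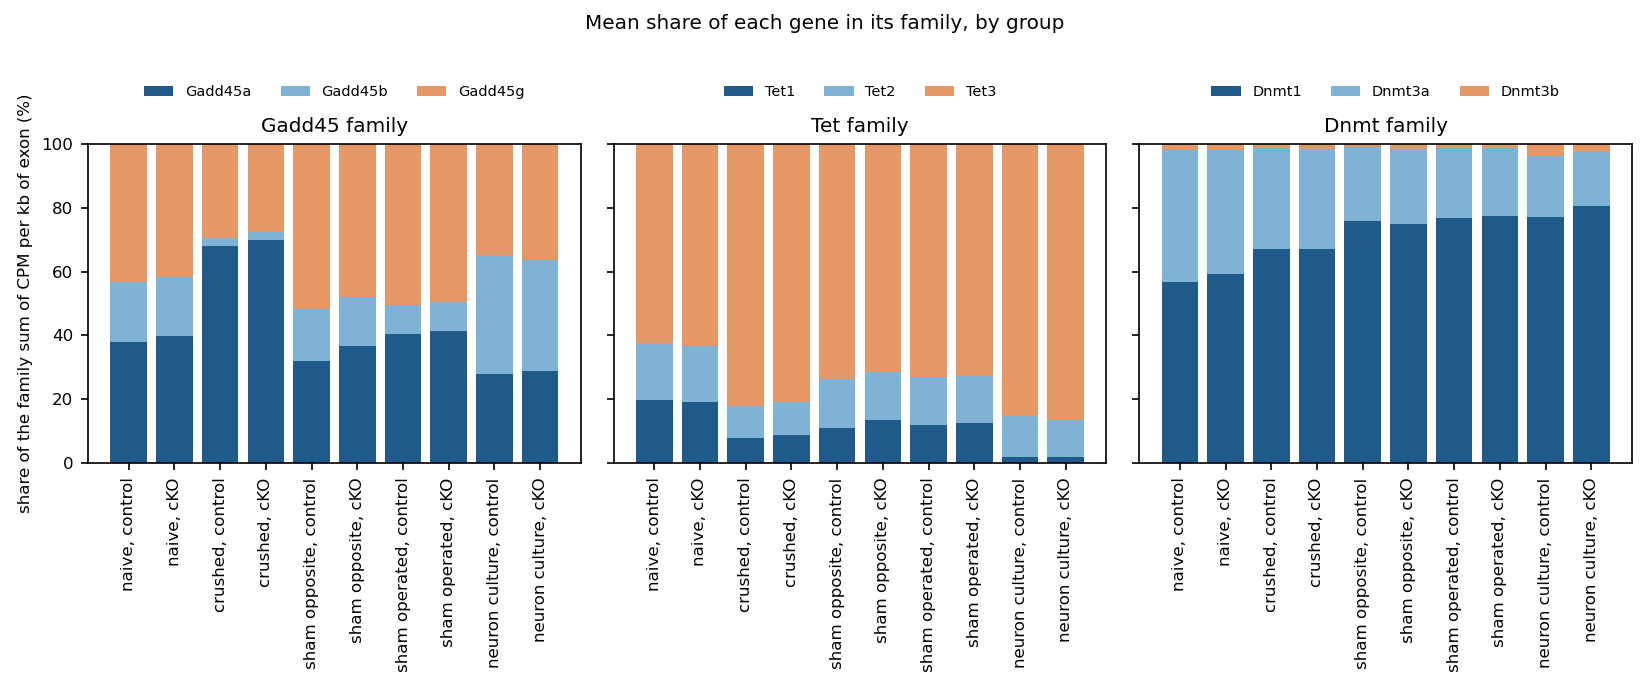
Mean share (percent, vertical axis from 0 to 100) of each gene in the summed CPM per kb of exon of its family, for the 10 groups along the horizontal axis (2 or 3 libraries each). In control ganglia Tet3 goes from 62.5% to 82.3% and Gadd45a from 38.0% to 67.9% after crush, and Gadd45b takes 37.3% in control neurons.

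The makeup of each family shifted accordingly, on the scale of CPM per kb of merged exons. The counts include intron reads and the ratio of span to exon length differs within families (6.76 for Tet1, 4.83 for Tet2 and 5.79 for Tet3), so shares of different genes are approximate. Per kb of the whole span, an alternative chosen after seeing the data, Tet3 went from 62.1% to 81.5% and Gadd45a from 40.2% to 70.4% after crush in control ganglia. There Tet1 and Tet2 changed order in naive control ganglia, at 16.8% and 21.1% against 19.8% and 17.7% per kb of exon. The sum of the Gadd45 genes went from 32.7 ± 1.77 CPM per kb (SD, n = 3) in naive control to 172 ± 19.2 (n = 3) in crushed control ganglia. Gadd45a went from 38.0 ± 4.30% of the sum to 67.9 ± 0.511% and was the most abundant in each crushed control library. Before crush Gadd45g held 43.4 ± 4.72%, but it stood clear of Gadd45a in naive control replicate 3 alone (16.9 against 11.4 CPM per kb), with 13.2 against 13.1 and 12.6 against 12.6 in the other 2. Gadd45b went from 18.6 ± 0.464% to 2.76 ± 0.613%. Tet3 made up 62.5 ± 1.84% of the Tet sum in naive and 82.3 ± 3.10% in crushed control ganglia, while Tet1 went from 19.8 ± 1.45% to 7.80 ± 1.13%. Of the methyltransferase sum, Dnmt1 held 56.8 ± 2.91% in naive and 67.0 ± 2.82% in crushed control ganglia, and Dnmt3b 1.85 ± 0.620% and 1.13 ± 0.297%. In cKO mice the corresponding shares after crush were 69.8 ± 1.74% for Gadd45a, 81.0 ± 2.49% for Tet3 and 67.2 ± 5.30% for Dnmt1.

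Other genes of the pathway were counted in 5 lists, on the average over genotypes after crush, in which 18.4% of all genes were called higher and 15.7% lower. Of 17 proteins that read methyl-CpG or help the methyltransferases, 16 were tested, with 6 higher and 2 lower (median log2 fold change 0.04, beside -0.0156 for all genes). Zbtb33, the methyl-CpG reader Kaiso, rose by 0.71 (adjusted p = 1.21e-06) and its relative Zbtb38 by 0.53 (adjusted p = 1.68e-05). Uhrf2, a Uhrf1 relative that binds 5-hydroxymethylcytosine, rose by 0.38 (adjusted p = 4.18e-05) and the imprinting factor Zfp57 by 0.77 (adjusted p = 0.00183). Hells, a remodeller that helps DNA methylation, had a log2 fold change of -0.62 (adjusted p = 7.28e-05) and the reader Zbtb4 one of -0.16 (adjusted p = 0.00275). Zbtb33 is uncertain, because its overlapping neighbour Tmem255a held 674% as many counts.

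Of 18 genes of base excision repair and cytosine deamination, 16 were tested, with 3 higher and 3 lower (median -0.08). The glycosylases Neil2 and Ung were lower, with log2 fold changes of -0.55 (adjusted p = 0.00204) and -0.41 (adjusted p = 0.0217). The DNA ligase Lig1 was lower at -0.31 (adjusted p = 0.0104), with an overlapping neighbour that held 127% as many counts. DNA polymerase beta, Polb, which fills the repair gap, was higher at 0.22 (adjusted p = 0.0275). Apobec3 at 0.51 (adjusted p = 0.00308) and the endonuclease Apex1 at 0.16 (adjusted p = 0.0329) were also called higher, but lie across neighbours with 371% and 439% as many counts. Both shares were near those of all genes (18.4% higher and 15.7% lower).

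The 15 cofactors and regulators of the Tet enzymes, all tested, had 1 higher and 4 lower (median -0.01), beside 18.4% and 15.7% of all genes. Slc23a2, a vitamin C transporter (ascorbate is a Tet cofactor), rose by 0.63 (adjusted p = 9.12e-06). The CXXC proteins Cxxc5 and Cxxc4, which bind Tet2, were lower at -0.39 (adjusted p = 0.000359) and -0.30 (adjusted p = 0.00549), both with overlapping neighbours (101% and 33.1% as many counts). D2hgdh and Fh1, enzymes that clear or use metabolites inhibiting Tet, were lower at -0.21 (adjusted p = 0.0495) and -0.12 (adjusted p = 0.0218). Of the 15 genes of the methyl donor cycle, 14 were tested, with 5 higher and 3 lower (median 0.01), beside the same shares of all genes. Ahcy, which hydrolyses S-adenosylhomocysteine, rose by 0.63 (adjusted p = 3.74e-05), and Mat2a, which makes S-adenosylmethionine outside the liver, by 0.30 (adjusted p = 7.81e-05). The folate and methionine enzymes Shmt2 and Mtrr rose by 0.42 (adjusted p = 0.000793) and 0.32 (adjusted p = 0.00114). Mat1a, the liver form, was lower at -1.22 (adjusted p = 0.0151).

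The 17 partners of the Gadd45 proteins and genes of stress arrest had 8 higher and 4 lower (median 0.11), beside 18.4% and 15.7% of all genes. Atf3 rose by 5.62 (adjusted p = 6.13e-10) and the cell cycle inhibitor Cdkn1a by 1.40 (adjusted p = 4.30e-06). Mapk14, the p38 kinase, rose by 0.48 (adjusted p = 1.52e-06), while Map2k6, a kinase that activates it, was lower at -0.95 (adjusted p = 3.35e-06). Mdm2 and Ddit3 rose by 0.45 (adjusted p = 9.59e-06) and 0.73 (adjusted p = 3.27e-05), although Ddit3 lies across a neighbour with 93.3% as many counts.

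Between Ahr cKO and control, the 10 genes showed no called difference in any setting. Of all genes tested by edgeR, 0.00941% were called between cKO and control naive ganglia, 0.00941% between crushed ganglia and 0% for the difference of the 2 crush responses (627 genes at an unadjusted p under 0.05). In these 3 comparisons 0 of the 10 genes were called, and 0 had an unadjusted p under 0.05 in edgeR, in DESeq2 or in limma on log2 FPKM. For Gadd45a the log2 difference between cKO and control had a 95% interval of -0.28 to 0.28 in naive and -0.23 to 0.26 in crushed ganglia. For Tet3 the interval was -0.16 to 0.28 and -0.29 to 0.13, and for Dnmt3a -0.18 to 0.18 and -0.25 to 0.10. The crush response of Gadd45a differed between genotypes by 0.02 (-0.35 to 0.39), that of Tet3 by -0.14 (-0.44 to 0.16) and that of Dnmt1 by -0.18 (-0.53 to 0.17). For Tdg and Gadd45b, which passed after crush in cKO but not in control mice, the responses differed by 0.13 (-0.09 to 0.35) and -0.07 (-0.45 to 0.31). Dnmt3b was the least bounded, with -0.84 to 0.68 in naive and -0.54 to 1.09 in crushed ganglia.

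In neuron cultures 3 of the 10 genes were lower in every cKO library than in any control library, where groups lay apart for 14.7% of all genes. Tet2 was at 14.0, 14.5 and 13.2 CPM in cKO and 14.9, 20.7 and 18.2 CPM in control neurons, a log2 difference of -0.37 (SE 0.114, unadjusted p = 0.0108, adjusted p = 0.547 in edgeR). Tet3 was at 108, 92.7 and 106 CPM in cKO and 110, 119 and 118 CPM in control neurons (log2 difference -0.19, SE 0.076, adjusted p = 0.605). Dnmt3b was at 2.12, 2.28 and 1.90 CPM in cKO and 3.09, 2.79 and 2.30 CPM in control neurons (log2 difference -0.37, SE 0.168, adjusted p = 0.628). The gaps between the groups were narrow, and the adjusted p of these 3 genes stayed at 0.223 to 0.912 over the alternatives for Tet2, at 0.278 to 0.912 for Dnmt3b and at 0.396 to 0.912 for Tet3. By edgeR 0 of 10 genes were called, as was 0% of all genes (1863 at an unadjusted p under 0.05). Of all genes, DESeq2 called 166, edgeR without a filter on low counts 27 and limma 1. Of the 10 genes, 2 (Tet2, Tet3) had an unadjusted p under 0.05 in edgeR and in DESeq2, and 1 (Dnmt3b) in limma.

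In sham ganglia 0 of the 10 genes were called between cKO and control on the operated side (0.00451% of all genes) or on the opposite side (0%, with 1160 at an unadjusted p under 0.05), and 0 had an unadjusted p under 0.05 in edgeR, DESeq2 or limma. With 2 mice per genotype the intervals were wide, for example -0.58 to 0.91 for Gadd45a on the operated side and -0.41 to 1.08 for Dnmt3b there. The count over all genes varied on the operated side, from 1 by edgeR to 176 by DESeq2, 626 without a filter, 135 without both sides of cKO mouse 1, and 98 and 30 without the operated side of cKO mouse 1 or 2. On the opposite side it was 0 by edgeR, 33 by DESeq2 and 59 without a filter, and under all of these settings 0 of the 10 genes were called on either side.

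**Figure D4:**
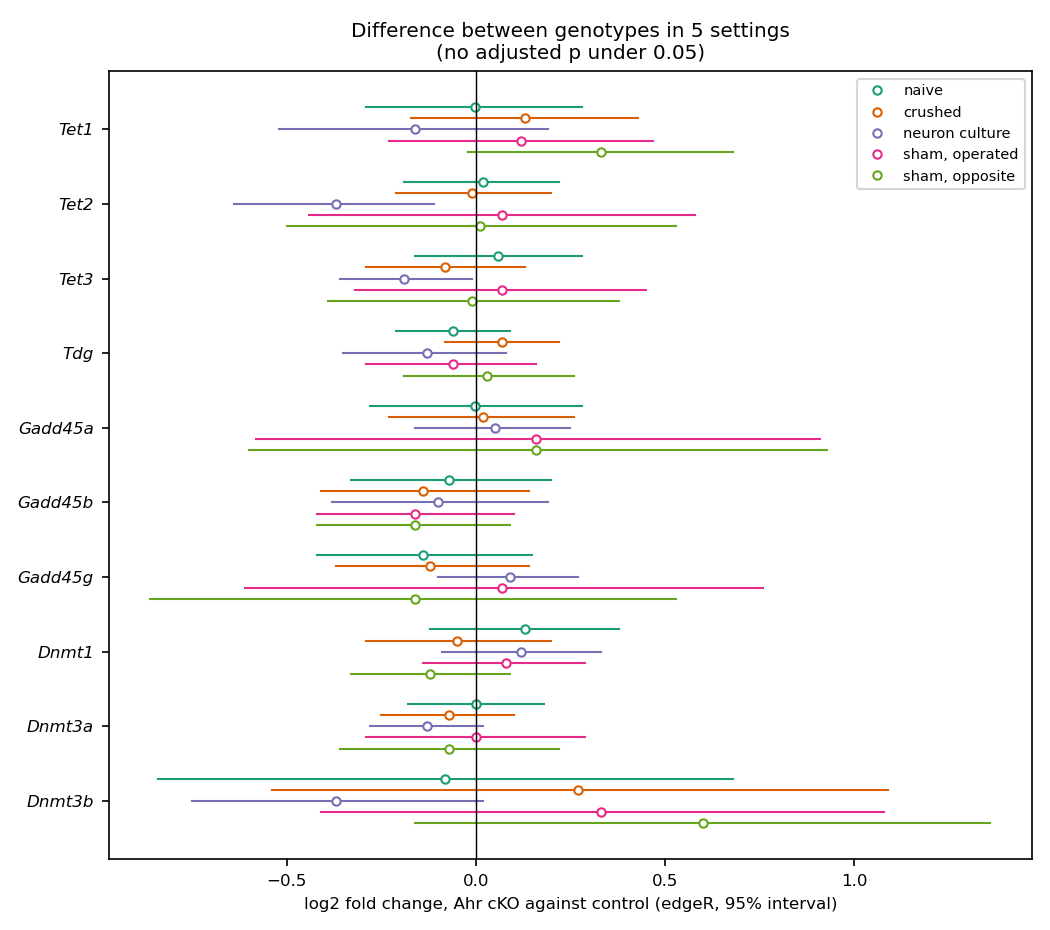
Log2 difference of cKO against control (horizontal axis) with its 95% interval from edgeR for the 10 genes in 5 settings: naive, crushed and neuron culture (3 libraries per genotype) and both sides of sham mice (2 per genotype). All points are open because 0 passed an adjusted p of 0.05. Tet2 and Dnmt3b in neuron culture lie at -0.37, and Dnmt3b on the opposite side of sham mice at 0.60.

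Sham surgery allowed the operated side to be set against the opposite side of the same mouse. Gadd45a was higher on the operated side in 4 of 4 mice, and the share of all genes for which this held is not given here. In control mice 1 and 2 it was at 53.8 and 48.9 CPM on the operated and 20 and 22.7 CPM on the opposite side, and in cKO mice 1 and 2 at 33.5 and 78.9 against 24.9 and 22.9 CPM. The opposite sides were alike, while the operated sides spread widely, with cKO mouse 2 at 3.45 times and cKO mouse 1 at 1.34 times its other side. Gadd45g too was widest in cKO mouse 2 and narrowest in cKO mouse 1: 43.4 and 42.2 CPM against 25.9 and 20.5 CPM in control mice, and 28.1 and 59.9 against 20.5 and 21.1 CPM in cKO mice. Atf3 was at 3.33 times its opposite side in cKO mouse 1 and at 17.2 times in cKO mouse 2, with the control mice at 10.5 and 7.18 times. Gal, a neuropeptide gene induced by axon injury and named here after its values were seen, had another order: 3.37 times in cKO mouse 1, 2.94 times in cKO mouse 2, and 1.85 and 1.80 times in the control mice. Gadd45b was higher on the operated side in 2 of 4 mice, with ratios of 0.955 to 1.11.

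Averaged over genotypes, the log2 side difference was 1.28 for Gadd45a (SE 0.233, adjusted p = 0.247) and 1.01 for Gadd45g (SE 0.213, adjusted p = 0.301). By edgeR 0 of 10 genes were therefore called, as were 0.00451% of all genes. These 2 genes had an unadjusted p under 0.05 in edgeR, DESeq2 and limma. Both were called by DESeq2, with adjusted p = 0.00553 and 0.038, and without a filter on low counts, where edgeR gave adjusted p = 2.62e-07 and 7.50e-06. Those settings called 204 and 381 of all genes, in place of 1. Without the operated side of cKO mouse 1 both were called, at log2 differences of 1.51 and 1.22. Without both sides of cKO mouse 1 both were called as well, and without the operated side of cKO mouse 2 only Gadd45a was, at 0.90. Adjusted p ranged from 2.62e-07 to 0.963 for Gadd45a and from 7.50e-06 to 1.0 for Gadd45g over 19 alternatives. With the mouse as a replicate block, which pairs the sides, the adjusted p was 0.228 and 0.224, and 4 genes of all tested were called in place of 1. Tet3 and Dnmt1, which rose after crush, had log2 side differences of 0.18 (95% interval -0.09 to 0.45) and 0.13 (-0.02 to 0.29). Tet3 was higher on the operated side in 4 of 4 mice, at 1.01 to 1.24 times, and Dnmt1 in 3 of 4, at 0.943 to 1.14 times. The side difference did not vary detectably with genotype: 0 of 10 genes and 0% of all genes were called (904 at an unadjusted p under 0.05, and 16 called by DESeq2, 144 without a filter and 41 without both sides of cKO mouse 1), with 0 of 10 at an unadjusted p under 0.05 in the 3 tools.

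**Figure D5:**
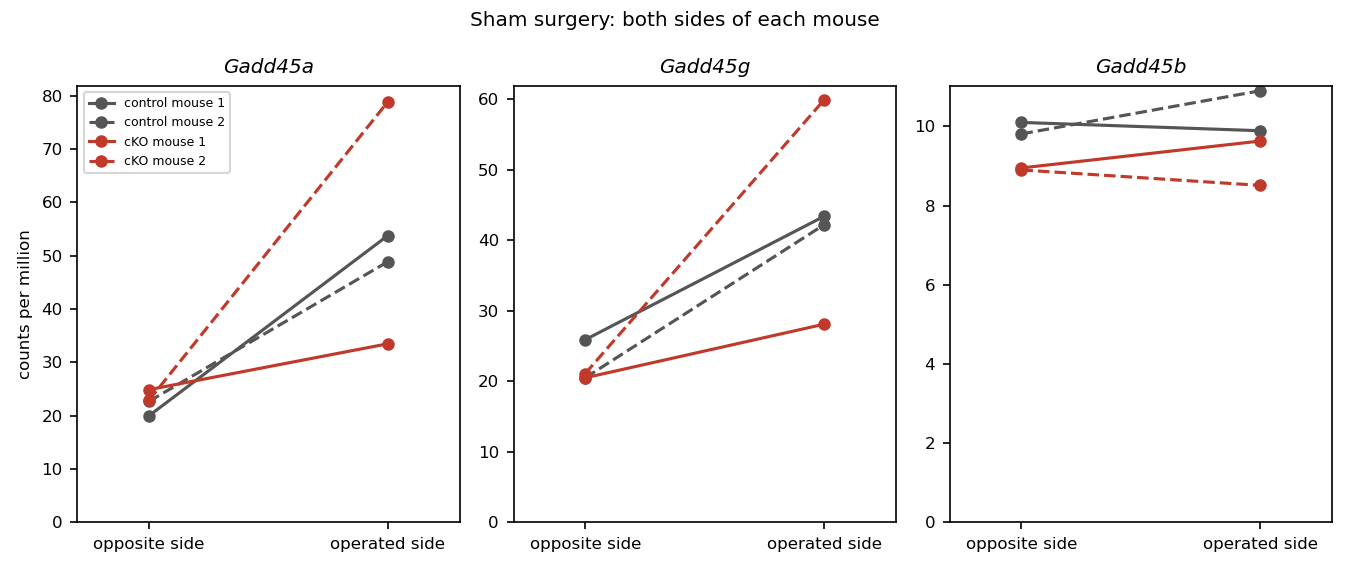
CPM (vertical axis, linear from 0) on the opposite and the operated side of each of the 4 sham mice, joined by a line, grey for control and red for cKO. Gadd45a is higher on the operated side in 4 of 4 mice, at 1.34 to 3.45 times the other side, and Gadd45b stays between 0.955 and 1.11 times.

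The neuron cultures held another profile of the 10 genes. They differ from all ganglia in preparation, and share a deposited table with the sham ganglia but not with the naive and crushed ones. The levels are set side by side and were not tested. Gadd45b, near the bottom of its range in crushed ganglia, was at 240, 184 and 176 CPM in control and 189, 193 and 181 CPM in cKO neurons. Its mean was 194 CPM in neurons, 9.37 in naive and 7.12 in crushed ganglia, 20.7 times the naive mean. Gadd45a was at 148 to 178 CPM in neurons, 0.812 times the crushed mean, and Gadd45g at 130 to 150 CPM, 2.47 times it. Per kb of exon the 3 Gadd45 genes were thus nearer to each other in control neurons, at 28.0 ± 2.58%, 37.3 ± 2.96% and 34.7 ± 1.51% of their sum (Gadd45a, Gadd45b, Gadd45g; SD, n = 3). E230016M11Rik held 32.2 to 35.5% as many counts as Gadd45a in neurons and 35.4 to 40.7% in sham ganglia.

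Tet1 was lowest in neurons, at 1.79 to 2.38 CPM, which put the naive mean 4.10 times above the neuron mean. Without crush it was also low on the opposite side of sham mice, at 3.67 to 5.17 CPM in the table of the neurons. In neurons Tet3 was at 92.7 to 119 CPM (3.60 times naive) and Tet2 at 13.2 to 20.7 CPM (1.86 times). Dnmt1 was at 72.2 to 95.6 CPM (4.75 times), Dnmt3a at 42.4 to 50.7 CPM (1.56 times) and Dnmt3b at 1.90 to 3.09 CPM (6.02 times, from 78 to 244 counts). Tdg was at 32.9 to 41.3 CPM (3.05 times), with Glt8d2 at 1.82 to 4.17% and Gm9855 at 1.02 to 3.74% of its counts, well below their shares in naive ganglia. The Gm9855 share was 0.868 to 1.85% in sham ganglia, where Tdg was at 18.8 to 21.7 CPM. The part of this shift in the levels of Tdg was not tested. Dnmt1 differed between tables without crush too, at 16.6 to 21.1 CPM in naive ganglia and 38.3 to 42.7 CPM on the opposite side of sham mice.

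The cultures were checked against marker genes. The 9 neuron markers were all detected, but summed to 3109.5 to 3657.4 CPM, below the 5844.1 to 6843.3 CPM of naive ganglia. Schwann cell markers were also lower, at 862 to 1045.6 against 3481.3 to 5550.9 CPM. Endothelial markers were at 903 to 1357.7 CPM against 100 to 177 CPM, with 5 of 5 markers detected, and dividing cell markers at 12.8 to 16.8 CPM. Satellite glia markers had the largest sum outside neurons, at 1861.5 to 2827.5 CPM, around the 2273.9 to 2590.2 CPM of naive ganglia. Macrophage markers were at 177 to 198 CPM (141 to 210 in naive ganglia), neutrophil markers at 9.55 to 113 CPM (98.8 to 613) and fibroblast markers at 202 to 349 CPM (497 to 935). RNA of other cell types was thus present in the semi-purified neurons, and its part in the levels of the 10 genes was not tested.

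In the order of group means, crushed ganglia of both genotypes, overlapping each other, stood highest for Gadd45a, though the lowest crushed cKO library (177 CPM) lay within the range of cKO neurons (166 to 178 CPM). Neurons stood highest for the other 8 genes besides Tet1, which was highest in naive ganglia. Gadd45b had the widest range, 29.4-fold from crushed cKO ganglia (6.80 CPM) to control neurons (200 CPM). In its order, neighbouring groups overlapped except where cKO neurons stood above the ganglia and where the opposite side of sham cKO mice stood above crushed control ganglia. Dnmt3a had the narrowest, 1.75-fold, and outside the neurons all its values lay between 24.9 and 31.7 CPM.

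The genes with the most similar profiles over the 26 libraries, by Pearson's r of log2 CPM among 14394 genes with a mean of at least 1 CPM, are given as a description. All points share the division into 3 sets of libraries that differ in depth and preparation. Gadd45a was most like Gpr151 (r = 0.995), Tmem88b (0.992) and Smim3 (0.989), and Gadd45g most like Plaur (0.989), Arid5a (0.98) and Timp1 (0.979). Gadd45b was most like Nqo1, Plk2 and Cyp1a1 (each 0.995). Nqo1 and Cyp1a1 are textbook target genes of Ahr, but whether Ahr acts on Gadd45b was not tested by these correlations. They include the step between preparations, with Gadd45b at a mean of 194 CPM in neurons and 9.37 CPM in naive ganglia. Between cKO and control neurons the log2 difference of Gadd45b was -0.1 (SE 0.125, adjusted p = 0.826 in edgeR). Tet3 was closest to Ubn1 (0.991), Tet1 to Zfp354c (0.979), Tet2 to Malat1 (0.966), Tdg to Taldo1 (0.993), Dnmt1 to Kansl3 (0.993) and Dnmt3a to Rbm26 (0.972). Dnmt3b, below 1 CPM on average, was not included.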

How the data were processed

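RNA was sequenced from TruSeq Stranded mRNA libraries, per the labels' protocols. The submitters' processing notes name Trim Galore, HISAT2, featureCounts and mm10; versions and the strand setting are not given in the sources used here. The authors deposited whole-number counts per gene and FPKM in 2 pairs of tables. The deposited FPKM divides by the gene's span in GENCODE M21 (within 0.1% for 99.38% of genes), with a median ratio of span to exon length of 3.282. Tsix counts were 100 to 100.3% of Xist counts in 16 libraries, so shared stretches were credited to both genes whatever the strand. Of 141 listed genes, 1 (Oga) was matched by an older symbol.

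Counts were tested with edgeR 4.0.16 (R 4.3.3): filterByExpr (minimum count 10, total 15), TMM, quasi-likelihood, 1 mean per group, two-sided, called at adjusted p under 0.05. The 12 naive and crushed libraries (21261 genes, biological coefficient of variation 0.0986), the 6 neuron libraries (23295, 0.131) and the 8 sham libraries (22160, 0.155) were fitted apart. DESeq2 1.42.0, limma 3.58.1 on log2(FPKM + 0.1), other filters, scaling, sex, replicate blocks and left-out libraries were alternatives. Replicates are separate mice for ganglia, per the labels; libraries of a group differed beyond counting noise (chi-square per degree of freedom 3.32 to 39.9 over 22 pairs). Both sides of a sham mouse pair by animal, with deviations correlating at 0.295 in control and -0.203 in cKO mice. All 10 genes are named in every comparison, and up to 6 genes per pathway list, those with the smallest p in the average over genotypes. Of these, 1 is not reported here by name. The members, lists and tests were chosen with earlier results of these data known.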

Additional observations from a re-analysis of the deposited data

Results flagged for a closer look

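For Dnmt3b, cKO and control libraries lay fully apart in opposite directions in different settings. Lying apart is common with so few libraries: it held for 14.7% of all genes in neurons and for 35.8% and 38.3% on the operated and opposite side of sham mice. The log2 difference of cKO against control was -0.37 in neuron cultures (3 and 3 libraries), where every cKO library was lower, but 0.33 on the operated and 0.60 on the opposite side of sham mice (2 and 2), where every cKO library was higher. The difference between these settings, which were fitted separately, was not tested, and none of the 3 passed the threshold by itself (edgeR adjusted p = 0.628, 0.927 and 0.88). Sham libraries held only 16 to 23 counts of Dnmt3b. Over the 10 genes, 100 pairs of genotype effects were compared and 2 pairs, both of Dnmt3b, met this description.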

How the results depend on the processing

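The direction and call of Gadd45a, Gadd45g and Tet3 after crush were kept in every alternative run, in both genotypes. For crush in cKO mice the count of 7 called genes was 3 with sex by transcripts as a term and 4 when only the 2 groups compared were fitted. It was 3 at a change of at least 1.5-fold, and 3 to 8 when a library was left out. Tet1, Gadd45b, Tdg and Dnmt1 were the calls lost. Dnmt3a was the call gained, lower without crushed cKO replicate 1, there and in the average over genotypes. Calls over all genes with 2 groups fitted or at 1.5-fold are not given here. Averaged over genotypes the count was 3 at a change of at least 1.5-fold and 7 to 8 when a library was left out, and in control mice it was 4 and 5 to 6 in the same settings. For the side difference after sham surgery the count of 0 became 2 with DESeq2, 2 with no filter and 0 to 2 with libraries or mice left out, while calls over all genes went from 1 to 204, 381 and 0 to 85. In the comparisons of cKO with control and the interactions the count was 0 under every alternative. The cause of these shifts was not tested. The replicate block, by mouse in sham ganglia and by replicate number elsewhere, gave 5 called genes for control, 7 for cKO and 0 for the sham sides, and so changed no call. Outside the sham mice no label pairs the libraries. Correlations of same-numbered deviations ran from -0.585 to 0.539 in naive and crushed ganglia. In neurons they were 0.08 to 0.385, with each library closest to its own number (3 of 3), a hint from the data and not the design; the block called 5 of all genes there in place of 0, and 0 of the 10. For the sham cKO mice, whose sides correlated at -0.203, a block with their operated sides swapped, chosen after seeing the data, called 0 of the 10 genes and 9 of all genes, against 4 with the sides paired by mouse and 1 without a block. Dnmt3b, at 5 to 23 counts per ganglion library, is limited by depth, as are Gadd45a and Tdg by overlapping genes.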
